A study of Mus musculus with 12 samples.

Results

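The caspases, the BCL2 family and the inhibitors of apoptosis comprised 40 of the 23282 gene rows of the count tables. Members were the rows whose symbol begins with Casp and a digit, with Bcl2, or with Birc and a digit, together with Bax, Bak1, Bid, Bad, Bik, Bbc3, Pmaip1, Mcl1, Apaf1, Xiap and Diablo. The group was chosen by its names and, in part, selected on measured values, the low Casp9 level of pre-symptomatic HD mice against WT, so the values of that contrast are a description, and its count past a threshold is no test of the members. RNAseq was performed on striatum and cortex of R6/2 HD mice, in which a fragment of the human HTT gene, its promoter and exon 1 with a long CAG repeat, was added to the mouse genome beside both mouse Htt alleles, and of WT littermates without this transgene. Post-symptomatic HD mice and WT mice of the same age were 13 weeks old, and pre-symptomatic HD mice and WT mice of the same age were 8 weeks old. Each HD group of 1 region and 1 age had 2 libraries and each WT group had 1, which makes 12 libraries of untreated brain tissue. The labels do not state whether replicates, or both regions of 1 number, came from separate mice. By the sex calls given below, the 2 replicates of each HD group differ in sex, so they are not 1 mouse. Whether both regions of 1 number share a mouse stays unknown, so p-values measure the spread between these libraries.

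Apoptosis, a programmed form of cell death, is run by caspases, proteases that are made as inactive precursors. In the mitochondrial route, BH3-only proteins sense stress and relieve the block that anti-apoptotic BCL2 proteins place on BAX and BAK1, which then open the outer mitochondrial membrane. Released cytochrome c assembles APAF1 and caspase-9 into the apoptosome, caspase-9 activates the executioner caspases, and XIAP, a protein with BIR domains, binds and inhibits these caspases until DIABLO displaces it. Neurons of the adult brain are known to hold this route under tight restraint.

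The depth of an HD library ranged from 8814386 to 11242872 counts and that of a WT library from 9394255 to 12091201. Rn45s, the ribosomal RNA precursor, took 10.5% to 15.2% of the counts in HD and 4.32% to 5.62% in WT. Levels are given as CPM, counts scaled to a total of 1e+06 with TMM factors, and the libraries count reads at transcript 3′ ends, so that CPM does not grow with transcript length. Some libraries stood apart. In replicate 2 of pre-symptomatic HD striatum the 10 markers of striatal projection neurons summed to 2309 CPM, against 7335 CPM in replicate 1, while the 9 oligodendrocyte markers summed to 19570 CPM against 3133 CPM and the 6 thalamus markers to 2178 CPM against 146.3 CPM. The 4 choroid plexus markers summed to 3000 CPM in replicate 2 of post-symptomatic HD cortex, to 944.4 CPM in replicate 2 of pre-symptomatic HD striatum and to at most 110.9 CPM in the other libraries. The striatal neuron markers summed to 7114 and 7737 CPM in WT striatum and to 1386 to 1411 CPM in post-symptomatic HD striatum, and the 8 markers of cortical excitatory neurons to 1502 and 1545 CPM in WT cortex and 724.6 to 805.8 CPM in post-symptomatic HD cortex. In bulk tissue, fewer cells of a type and less RNA per cell cannot be told apart. By Xist and Y-linked genes, replicate 1 of each HD group was male and replicate 2 female, the 13-week WT libraries were female and the 8-week WT libraries male, so sex was split within HD and held in common within each WT age.

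Promoter sequences are shown for Xiap and Birc6, the members that passed the test in post-symptomatic HD, and for Casp9, whose level chose the group. They were taken from RefSeq on GRCm38.p6, which held an entry for 35 of the 40 members, and run 5′ to 3′ on the gene's strand from 250 bases before to 50 bases after the start. Capitals mark the GC box, searched as GGGCGG and, on the other strand, CCGCCC. Xiap had 3 listed starts, of which the first in the table is shown, chrX:42068148-42068447 on the plus strand. Birc6 lies at chr17:74528045-74528344 and Casp9 at chr4:141793362-141793661, both on the plus strand.
Xiap: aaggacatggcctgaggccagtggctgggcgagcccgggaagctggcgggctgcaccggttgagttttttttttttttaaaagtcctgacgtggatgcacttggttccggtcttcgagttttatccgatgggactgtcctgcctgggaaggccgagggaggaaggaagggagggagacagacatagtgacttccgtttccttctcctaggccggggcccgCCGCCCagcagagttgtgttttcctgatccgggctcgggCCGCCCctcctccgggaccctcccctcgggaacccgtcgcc
Birc6: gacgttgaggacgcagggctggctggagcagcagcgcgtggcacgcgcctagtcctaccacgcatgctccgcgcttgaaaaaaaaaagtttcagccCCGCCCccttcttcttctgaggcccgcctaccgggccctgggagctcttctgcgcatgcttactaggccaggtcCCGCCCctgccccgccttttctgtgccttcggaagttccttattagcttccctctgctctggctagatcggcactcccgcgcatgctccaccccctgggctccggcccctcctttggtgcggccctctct
Casp9: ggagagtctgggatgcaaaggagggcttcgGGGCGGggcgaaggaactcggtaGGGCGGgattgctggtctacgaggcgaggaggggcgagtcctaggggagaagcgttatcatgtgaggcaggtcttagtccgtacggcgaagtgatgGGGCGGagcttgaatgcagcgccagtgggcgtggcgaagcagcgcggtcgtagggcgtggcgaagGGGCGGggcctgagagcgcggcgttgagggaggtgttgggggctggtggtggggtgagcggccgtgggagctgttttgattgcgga
The windows hold 2 GC boxes in Xiap, 2 in Birc6 and 4 in Casp9, with a GC content of 61.7%, 64% and 66%. None of the 3 holds a CCAAT box, a TATA box (TATAAA), a cAMP response element (TGACGTCA) or an E-box (CACGTG). Over 32851 promoters of this length, 35.7% hold a GC box and 37.4% a CCAAT box. These matches describe the letters of the windows only.

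Casp9 (ENSMUSG00000028914.13, the initiator caspase of the apoptosome) lies at chr4:141793612-141815976 on the plus strand of GRCm38. In pre-symptomatic HD it stood at 13.7 and 18.6 CPM in striatum and at 12.9 and 15.4 CPM in cortex. The WT libraries of that age had 40.8 CPM (striatum) and 56.1 CPM (cortex), above every HD library of that age. These are the values that chose the group, with a fitted log2 fold change of -1.65 (SE 0.35) and log2 ratios of mean CPM of -1.33 in striatum and -1.99 in cortex. In post-symptomatic HD the 2 libraries of each region spread widely, at 20.3 and 55.9 CPM in striatum and at 38.5 and 66.1 CPM in cortex. The 13-week WT libraries had 38.5 CPM (striatum) and 50.5 CPM (cortex), inside the range of the HD libraries of each region. In each of the 4 HD groups replicate 2, the female one, was above replicate 1. The highest value was that of the cortex library with the choroid plexus markers, whose part in it was not tested. The difference at 13 weeks was smaller than its error (log2 fold change 0.02, SE 0.36, adjusted p = 0.983, edgeR quasi-likelihood test with Benjamini-Hochberg adjustment). With sex as a term it was 0.30. Leaving out 1 library turned it to -0.21 (replicate 2 of post-symptomatic HD striatum), -0.20 (replicate 2 of post-symptomatic HD cortex) or -0.07 (the 13-week WT striatum library). From the pre-symptomatic to the post-symptomatic stage within HD the fitted change was 1.57 (SE 0.34), given without a test since it shares the libraries that chose the gene. In every region the lowest post-symptomatic library was still above the highest pre-symptomatic one, an order whose share over all genes was not counted. Between the ages of WT mice, which also differed in sex, the log2 change of Casp9 was -0.12 (SE 0.42). This change is also given without a test, since the 8-week WT libraries are part of the contrast that chose Casp9. Casp9 overlaps Cela2a and Ctrc on the opposite strand, and the sources used here do not say whether counting used strand. Cela2a had at most 11 counts in a library and Ctrc had none, against 117 to 748 counts of Casp9.

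**Figure D1:**
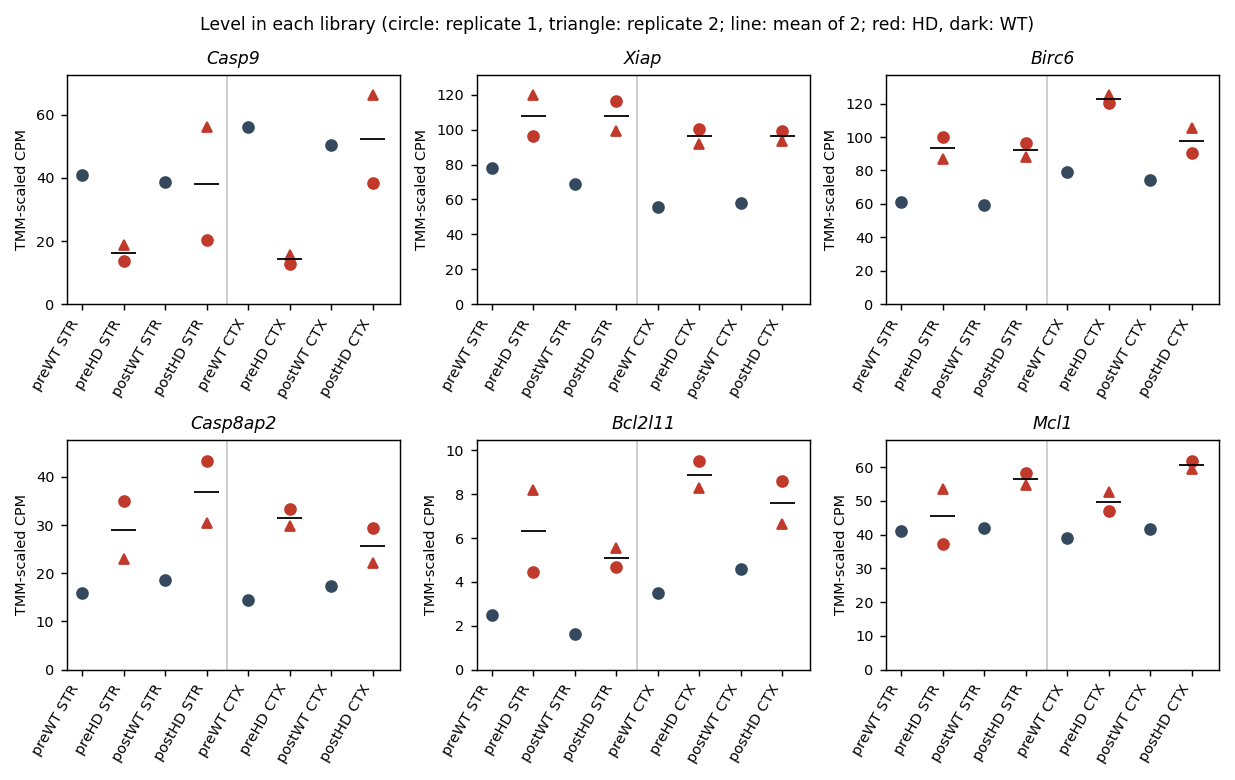
TMM-scaled CPM of 6 members in each of the 12 libraries, by region (STR, striatum; CTX, cortex), genotype and age (pre, 8 weeks; post, 13 weeks), with circles for replicate 1, triangles for replicate 2, lines for the mean of 2 HD libraries, HD in red and WT in dark blue. Casp9 lies at 12.9 to 18.6 CPM in pre-symptomatic HD and spreads from 20.3 to 66.1 CPM in post-symptomatic HD. For Xiap, Birc6, Casp8ap2 and Bcl2l11 every HD library lies above the WT libraries of its region, as in 5.71% of all genes.

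Whether the group differed between HD and WT mice after symptom onset was asked by comparing libraries that did not choose it. The fit also held the pre-symptomatic HD libraries and the WT libraries of their age, which did choose it. Those libraries entered the estimates of spread and of the region term, so the test is not fully independent of the choice. Leaving out some of them changed which members passed, as given below. Xiap and Birc6 passed the test as higher in HD, and no member passed it as lower. Of the 31 members tested, 2 passed an adjusted p of 0.05, both higher in HD, where 7.36% of all 14706 genes passed, 3.1% as higher and 4.26% as lower. In log2 fold change, 26 of the 31 members tested were above 0, against 51.2% of all genes, with a median of 0.36 for the members and 0.01 for all genes. At an unadjusted p under 0.05, 6 of the 31 members were higher and 0 lower, against 10.2% and 12.1% of all genes. In either direction, 22.3% of all genes were under it.

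Xiap (ENSMUSG00000025860.15, X-linked inhibitor of apoptosis, a direct inhibitor of caspases) lies at chrX:42059679-42109656, with no overlapping gene in the annotation. It stood at 116.6 and 99.4 CPM in post-symptomatic HD striatum and at 99.4 and 93.5 CPM in cortex, against 68.8 CPM and 57.9 CPM in the WT striatum and cortex libraries. All 4 HD libraries were above the WT library of their region, as in 21.4% of all genes. Xiap was 1.62-fold higher in HD (log2 fold change 0.69, SE 0.15, adjusted p = 0.0146, edgeR quasi-likelihood test). By region, the log2 ratio of mean CPM was 0.65 in striatum and 0.74 in cortex. The call was lost without the 13-week WT striatum library (log2 fold change 0.70, adjusted p = 0.209) and without the 13-week WT cortex library (0.68, adjusted p = 0.160). With Rn45s taken out of the tables the change was 0.69 (adjusted p = 0.0151), and with sex as a term 0.68 (adjusted p = 0.0300).

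Birc6 (ENSMUSG00000024073.16, a very large BIR protein that also carries a ubiquitin-conjugating domain) lies at chr17:74528295-74703356. It overlaps Gm26749 on the opposite strand, which has no row in the count tables, so its reads could not be checked. The level of Birc6 was 96.6 and 88.1 CPM in post-symptomatic HD striatum and 90.2 and 105.4 CPM in cortex. The WT libraries had 59.3 CPM (striatum) and 74.4 CPM (cortex), each below the HD libraries of its region, as in 21.4% of all genes. Birc6 was 1.43-fold higher in HD (log2 fold change 0.52, SE 0.14, adjusted p = 0.0438). It passed the threshold in 4 of 12 fits that each left out 1 library, those without replicate 1 of post-symptomatic HD cortex, either replicate of pre-symptomatic HD striatum, or the 8-week WT cortex library. Its highest adjusted p was 0.377, without the 13-week WT striatum library, with a log2 fold change of 0.48. Without replicate 2 of post-symptomatic HD cortex, which held the choroid plexus markers, Birc6 had 0.52 (adjusted p = 0.0840) and Xiap 0.70 (adjusted p = 0.0316). Without Rn45s the adjusted p of Birc6 was 0.0524 and with sex as a term 0.0685.

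Of the other BIR genes, Birc2, a ubiquitin ligase that blocks signalling from tumour necrosis factor receptors to cell death, stood at 31.5 to 39.1 CPM in post-symptomatic HD and at 20.2 to 33.1 CPM in WT of the same age. Birc3 and Birc5 were at 5.30 CPM or less in every library, and none of these 3 passed the test.

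Further members came close to the threshold. Casp8ap2, a nuclear protein that binds caspase-8 and takes part in histone messenger RNA production, stood at 43.4 and 30.5 CPM in post-symptomatic HD striatum and at 29.3 and 22.1 CPM in cortex, against 18.7 and 17.4 CPM in WT. Its log2 fold change was 0.78 (SE 0.25, adjusted p = 0.0806). Bcl2l11, which encodes the BH3-only protein BIM, had 4.66 and 5.56 CPM in striatum and 8.59 and 6.62 CPM in cortex of post-symptomatic HD, against 1.62 and 4.57 CPM in WT, with a log2 fold change of 1.11 (SE 0.36, adjusted p = 0.0882). Mcl1, a short-lived anti-apoptotic protein, had 58.2 and 54.6 CPM in striatum and 61.9 and 59.3 CPM in cortex, against 41.9 and 41.7 CPM in WT (striatum and cortex), with a log2 fold change of 0.48 (SE 0.16, adjusted p = 0.0950). In each of these 3 genes every HD library exceeded the WT library of its region, as in 21.4% of all genes. Of 12 fits that each left out 1 library, each of the 3 genes passed the threshold in 1 and did not in 11. Without replicate 2 of pre-symptomatic HD striatum, Casp8ap2 (0.77, adjusted p = 0.0269) and Bcl2l11 (1.12, adjusted p = 0.0497) also passed, which makes 4 members. Without replicate 1 of that group, Mcl1 passed (adjusted p = 0.0498).

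By role, 4 of the 5 tested BIR genes had a log2 fold change above 0 at 13 weeks, against 51.2% of all genes. All 3 initiator caspases, all 6 tested anti-apoptotic BCL2 genes and both effectors were above 0 also, some by far less than their error. Among them Casp9 had 0.02 (SE 0.36) and Bcl2 0.006 (SE 0.15). The 5 tested BH3-only genes split into 3 above and 2 below 0. The most abundant members of the other classes did not pass the test. Bcl2l1, the neuronal anti-apoptotic protein BCL-XL, had 80.1 to 93.8 CPM in post-symptomatic HD and 78.1 and 85.8 CPM in WT (log2 fold change 0.06, SE 0.17, adjusted p = 0.882). Bad, a BH3-only protein that binds BCL-XL, had 42.2 to 56.5 CPM against 55.3 and 63.1 CPM (-0.24, SE 0.19, adjusted p = 0.501). Diablo, the mitochondrial antagonist of XIAP, had 19.2 to 28.9 CPM against 23.8 and 22.5 CPM (-0.07, SE 0.28, adjusted p = 0.919). Bcl2l13, an outer mitochondrial membrane protein, had 29.5 to 38.8 CPM against 26.8 and 36.0 CPM (0.09, SE 0.16, adjusted p = 0.791).

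The effector Bak1 had 4.42 to 9.41 CPM against 5.15 and 4.74 CPM (0.36, SE 0.39, adjusted p = 0.657). Casp1, the inflammatory caspase that matures interleukin-1β, had at most 2.03 CPM in any library. Its log2 fold change of 1.003 was about as large as its SE of 0.99, so it could not be told from 0. The 2 post-symptomatic HD cortex libraries had 3 and 23 counts of Casp1. Counting the libraries by rank, 11 of the 31 members tested were higher in every post-symptomatic HD library than in the WT library of the same region, against 21.4% of all genes, and 1, Bad, was lower in every one, against 22.6%.

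**Figure D2:**
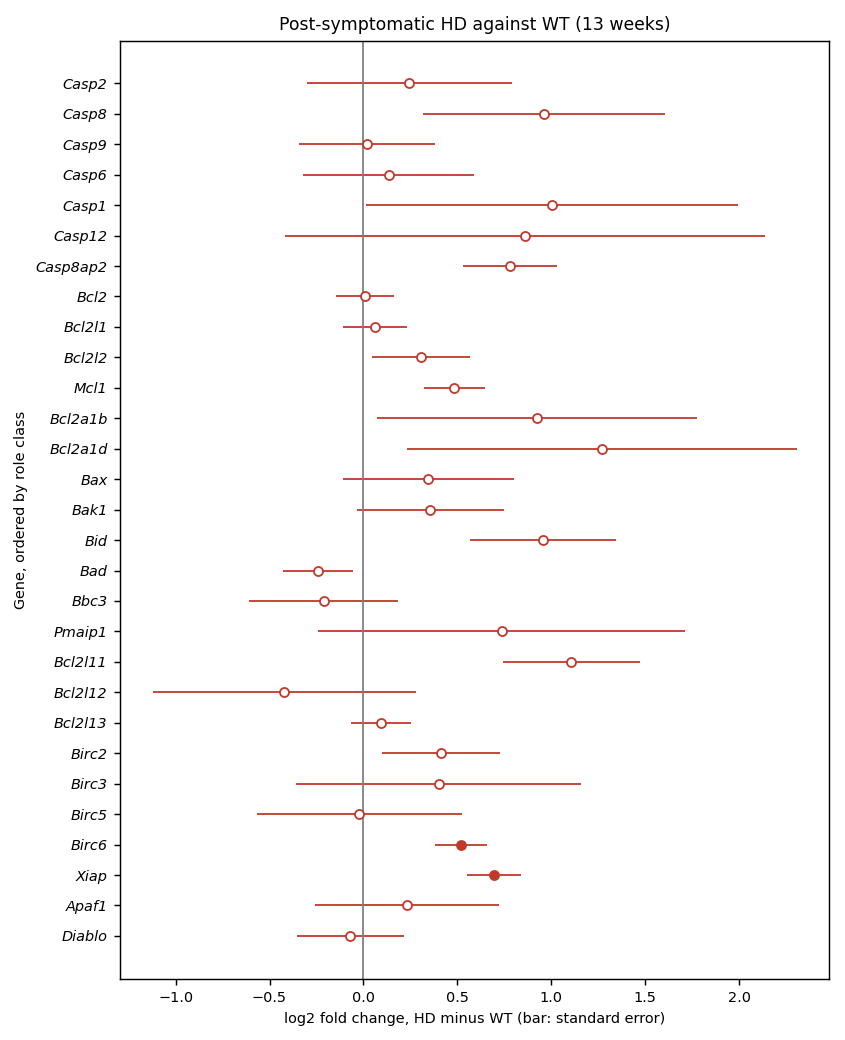
Log2 fold change of 29 of the 31 tested members in post-symptomatic HD against WT of 13 weeks, ordered by role class, with bars for the standard error and filled points for an adjusted p under 0.05. Xiap (0.69) and Birc6 (0.52) are filled, 24 of the 29 points lie to the right of 0, and Casp9 lies at 0.02.

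Whether the 13-week difference between HD and WT mice itself differed between striatum and cortex was tested with a mean for each of the 8 groups. No member passed (0 of 33 tested, lowest adjusted p 1, 0 at an unadjusted p under 0.05), nor did any of all genes. With 1 WT library per region and age the spread comes from the HD replicates alone.

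In the pre-symptomatic mice, whose contrast chose the group, 3 of the 31 members were past the same threshold, 2 higher (Birc6 and Xiap) and 1 lower, which is Casp9, the gene the group was chosen for. Of all genes, 2.1% were past it, 1.95% higher and 0.15% lower, and since the choice used this contrast nothing is read from these counts. Xiap was past the threshold in 3 of 19 alternatives and Birc6 in 4 of 19. Xiap had 96.2 and 119.6 CPM in pre-symptomatic HD striatum and 100.6 and 91.9 CPM in cortex, against 77.8 and 55.7 CPM in WT, a log2 fold change of 0.63 (SE 0.15). Birc6 had 100.2 and 87.0 CPM in striatum and 120.1 and 124.9 CPM in cortex, against 61.2 and 79.1 CPM, a log2 fold change of 0.62 (SE 0.14). Casp8ap2 (0.997, SE 0.25) and Bcl2l11 (1.34, SE 0.37) were higher in every HD library at this age also, and Bcl2 had 0.57 (SE 0.16). By rank, 9 members were higher in every pre-symptomatic HD library than in WT of the region, against 15.4% of all genes, and 4 were lower, the chosen Casp9 included, against 15.1%. In all, 4 members, Bcl2l11, Birc6, Casp8ap2 and Xiap, lay above WT in every HD library of both ages, against 5.71% of all genes, and 0 lay below in all, against 3.63%. In log2 fold change, 19 of the 31 members were above 0 at both ages and 4 were below 0 at both. The share of all genes with either pattern was not counted. Each age has its own WT libraries, but the pre-symptomatic contrast chose the group, so this agreement between ages is no independent test.

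**Figure D3:**
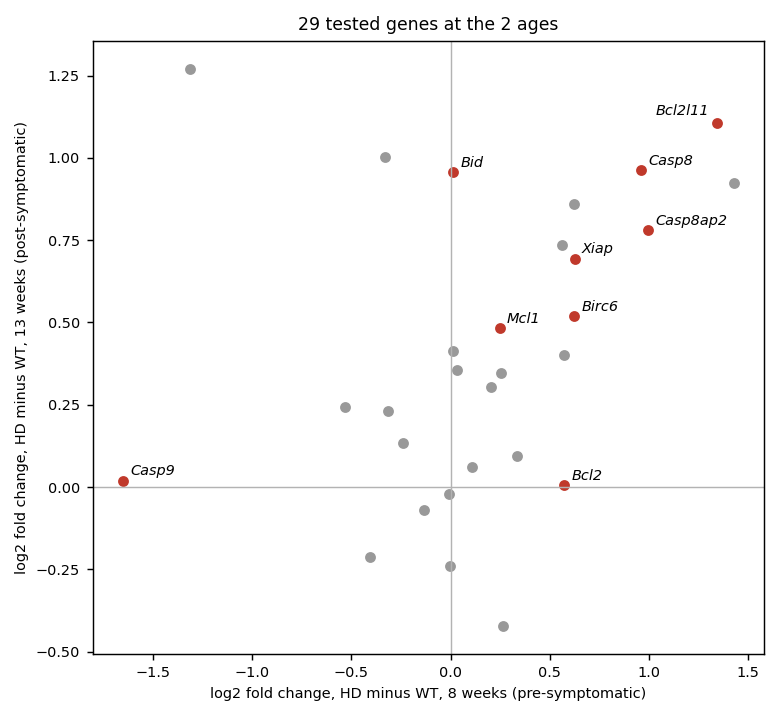
Log2 fold change of HD against WT at 8 weeks (x axis) and at 13 weeks (y axis) for 29 of the 31 tested members, with named genes in red. Xiap, Birc6, Casp8ap2 and Bcl2l11 lie above 0 on both axes, and Casp9 lies at -1.65 on the x axis and at 0.02 on the y axis.

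Change with symptom onset was compared within HD, over 8 libraries with region as a term. Apart from Casp9, which was left out of this test, 0 of 27 members passed. Of all 13944 genes 6.45% passed, 1.93% higher and 4.53% lower. An unadjusted p under 0.05 was found for 0 members, against 22.6% of all genes. DESeq2 also called 0. Xiap (log2 change 0.01, SE 0.12, adjusted p = 0.963) and Birc6 (-0.16, SE 0.12, adjusted p = 0.479) did not pass. Mcl1 had a change of 0.31 (SE 0.14, adjusted p = 0.228), Bid 0.65 (SE 0.32, adjusted p = 0.268) and Apaf1, the scaffold of the apoptosome, 0.65 (SE 0.37, adjusted p = 0.337). Mcl1 spread from 37.1 to 53.6 CPM before and from 54.6 to 61.9 CPM after symptom onset.

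By region, 0 of 30 members passed in striatum (0.16% of all genes) and 0 of 30 in cortex (0.591%). Bbc3, which encodes the p53-induced BH3-only protein PUMA, had 19.8 and 9.37 CPM in pre-symptomatic and 8.86 and 5.99 CPM in post-symptomatic HD striatum, a log2 change of -0.93 (SE 0.43, adjusted p = 0.401). It passed only when replicate 2 of pre-symptomatic HD striatum, the library with the thalamus markers, was left out, which made 1 of the members past the threshold. Apaf1 had 2.10 and 3.81 CPM in pre-symptomatic and 7.65 and 7.42 CPM in post-symptomatic HD cortex, a log2 change of 1.34 (SE 0.45, unadjusted p = 0.0150 and adjusted p = 0.219 by edgeR), where it had -0.03 (SE 0.44) in striatum. The difference in this change between regions passed for 0 of 30 members (0% of all genes), with Apaf1 at -1.37 (SE 0.62) and Bbc3 at -1.30 (SE 0.61) as striatum minus cortex.

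**Figure D4:**
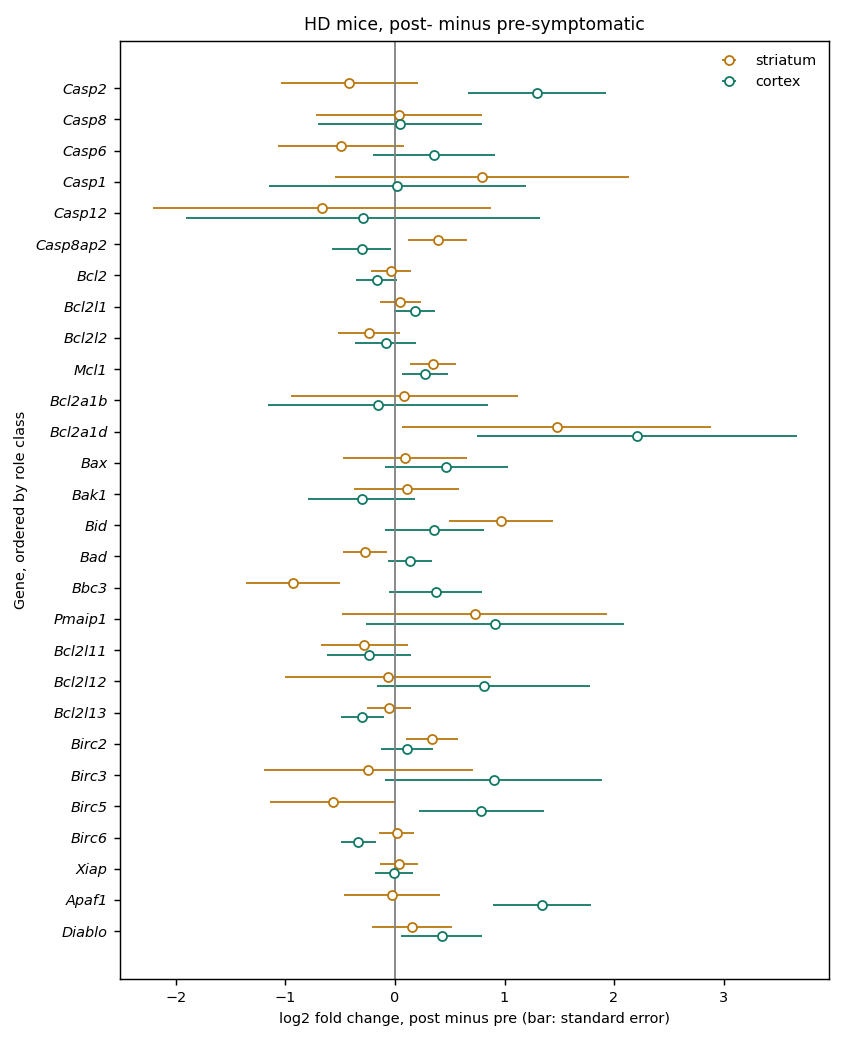
Log2 change from pre-symptomatic to post-symptomatic HD in striatum (orange) and in cortex (green) for 28 members, ordered by role class, with bars for the standard error. Casp9 is left out because its pre-symptomatic level chose the group, all points are open because none passed an adjusted p of 0.05, and Apaf1 lies at 1.34 in cortex and -0.03 in striatum.

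Between the ages of WT mice, with Casp9 left aside, 0 of 30 members passed, where 0.0136% of all genes did, and 1 had an unadjusted p under 0.05, Bcl2 (log2 change 0.45, SE 0.18, adjusted p = 1). The change with age in HD minus that in WT passed for 0 of 30 members, where 0.116% of all genes passed, and Bcl2 again had the lowest unadjusted p (-0.57, SE 0.22, adjusted p = 0.439). Bcl2 stood at 26.4 CPM in 8-week and 40.7 CPM in 13-week WT striatum, and at 19.8 and 24.0 CPM in WT cortex, and each of these ages has 1 library per region. Of all genes, 1.82% had an unadjusted p under 0.05 between the WT ages. The 8-week WT libraries were male and the 13-week ones female, so age and sex cannot be told apart within WT. The WT part of the difference between HD and WT changes has the same limit.

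Regional levels were compared over all 12 libraries. Bcl2, the founding anti-apoptotic member, was higher in striatum. In all, 2 of 31 members passed, 1 higher and 1 lower in striatum, where 20.6% of all genes passed, 8.51% higher and 12.1% lower in striatum. An unadjusted p under 0.05 was found for 9 of the 31 members, against 33.4% of all genes. Bcl2 (chr1:106538178-106714274, minus strand, overlapped by Gm37053, Mir3473f and D630008O14Rik) had 40.7 and 36.3 CPM in post-symptomatic HD striatum, 44.2 and 36.8 CPM in pre-symptomatic HD striatum, 26.4 CPM in 8-week WT striatum and 40.7 CPM in 13-week WT striatum. In cortex the same groups had 27.2 and 24.3 CPM, 28.4 and 28.9 CPM, 19.8 CPM and 24.0 CPM. Within each genotype and age, every striatum library exceeded every cortex library, and how many of all genes have this order was not counted. Bcl2 was 1.47-fold higher in striatum (log2 fold change 0.56, SE 0.10, adjusted p = 0.00239). It passed in all 20 alternatives.

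Birc6 (-0.27, SE 0.09, adjusted p = 0.0531), Bcl2l11 (-0.66, SE 0.23, adjusted p = 0.0617), Bid (-0.69, SE 0.25, adjusted p = 0.0708) and Bcl2l2 (-0.47, SE 0.17, adjusted p = 0.0736) were just outside the threshold, all toward cortex. Casp9 had -0.24 (SE 0.24, adjusted p = 0.538).

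**Figure D5:**
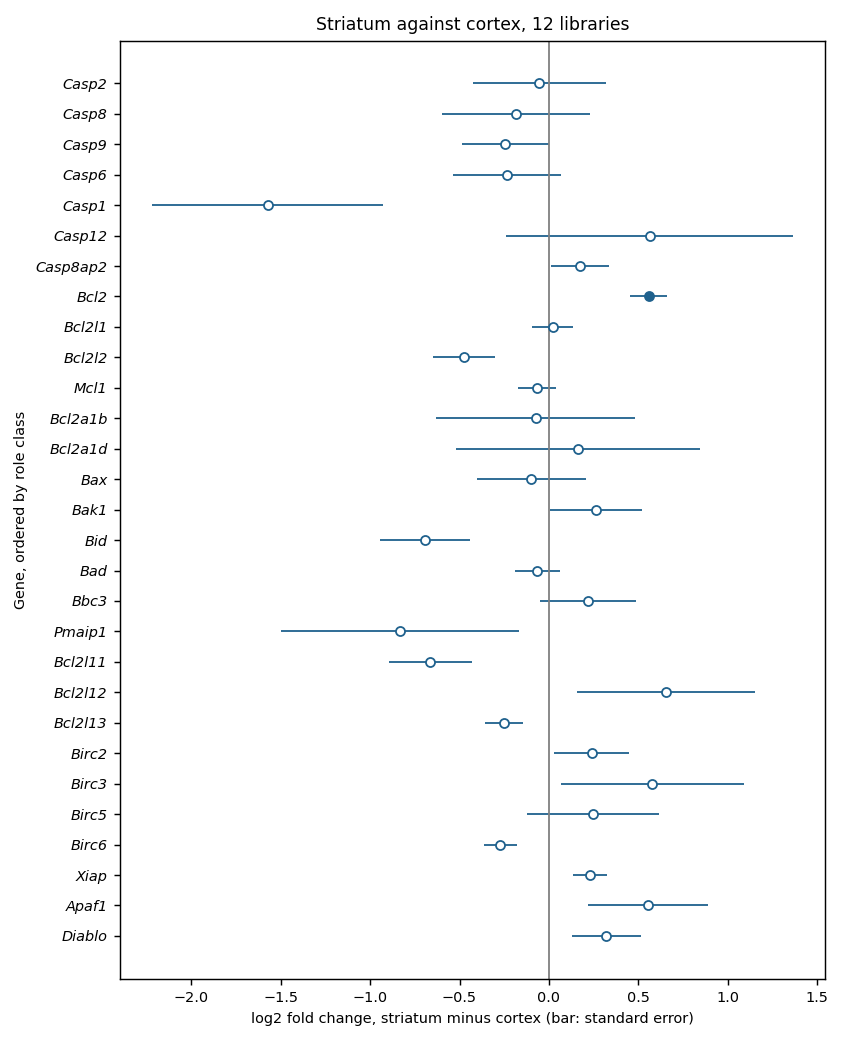
Log2 fold change, striatum minus cortex, over 12 libraries for 29 of the 31 tested members, ordered by role class, with bars for the standard error and filled points for an adjusted p under 0.05. Bcl2 (0.56) is the filled point.

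The overall order of levels, in mean CPM over the 12 libraries, ran from Birc6 (90.5), Xiap (89.8) and Bcl2l1 (81.1) through Bad (53.2), Mcl1 (49.0), Casp9 (35.6), Bcl2l13 (34.0), Bcl2 (31.5), Birc2 (31.3) and Casp8ap2 (26.1) to Diablo (20.8). Birc6 and Xiap differ by less than their spread over libraries, as do Bcl2l13, Bcl2 and Birc2. These 11 members had at least 20 CPM, and 13 of the 31 tested had under 5 CPM. Casp14, Bcl2l10, Bcl2a1c and Bcl2l14 had no count in any library, where 3 counts, the limit that a count of 0 allows, is 0.254 to 0.351 CPM, a limit for counting error only. Casp4, Bcl2a1a, Bcl2l15, Bik and Birc7 had at most 14 counts in any library and did not pass the filter. The Bcl2a1 genes are near-identical copies between which reads may be split, so their values are uncertain.

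Other genes of the mitochondrial, death receptor and inflammasome pathways, 45 in all with 44 in the tables and 31 tested, were read in the same fits. In post-symptomatic HD against WT 1 was higher and 3 lower, beside the 7.36% of all genes that passed. Cflar, the caspase-8 inhibitor c-FLIP, had 18.7 and 21.3 CPM in post-symptomatic HD striatum and 19.4 and 27.0 CPM in cortex, against 9.92 and 13.5 CPM in WT (log2 fold change 0.89, SE 0.22, adjusted p = 0.0284). Hrk, a neuronal BH3-only gene, had 30.9 and 31.1 CPM in striatum and 31.5 and 24.9 CPM in cortex, against 266.5 and 100.6 CPM in WT (-2.46, SE 0.44, adjusted p = 0.0116). All 4 post-symptomatic HD libraries of Hrk lay below every other library, and the share of all genes with this order was not counted. The lowest of the others was 74.9 CPM in replicate 2 of pre-symptomatic HD striatum, where replicate 1 had 272.2 CPM. Hrk fell together with the striatal and cortical neuron marker sums given above, and their part in it was not tested. Bnip3 (-0.68, SE 0.15, adjusted p = 0.0173), a mitophagy receptor, and Bnip1 (-1.21, SE 0.32, adjusted p = 0.0399) were lower also. From the pre-symptomatic to the post-symptomatic stage within HD, 0 of 30 rose and 3 fell, where 1.93% of all genes rose and 4.53% fell. These were Hrk (-2.11, SE 0.37, adjusted p = 0.0184), Parp1 (-0.64, SE 0.13, adjusted p = 0.0227), a substrate of executioner caspases, and Il18 (-0.63, SE 0.16, adjusted p = 0.0443), a cytokine that caspase-1 matures. Between striatum and cortex, 3 of 31 passed, where 20.6% of all genes did. Aim2 (1.48, SE 0.32, adjusted p = 0.00566) and Cradd (0.80, SE 0.16, adjusted p = 0.00440) were higher in striatum and Bnip3 (-0.34, SE 0.10, adjusted p = 0.0332) lower.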

How the data were processed

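Brain RNA was extracted with Trizol and sequenced as Lexogen QuantSeq libraries. The authors deposited raw counts of reads per gene symbol, 1 table for each library. The submitters' processing notes name mm10, Bowtie2 and bedtools, without versions. Filters and strand use are not given in the sources used here. The 44 rows that repeat a symbol were kept as rows of their own, and none is a member.

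From the deposited counts, tests were run with edgeR 4.0.16 in R 4.3.3. TMM factors, filterByExpr (minimum count 10), the robust quasi-likelihood test and Benjamini-Hochberg adjustment over all genes tested were used, with a threshold of 0.05. Comparisons with WT and between regions were fitted on 12 libraries with a term for region and a mean for each combination of genotype and age. HD stages were fitted on the 8 HD libraries. With 1 WT library per region and age, the spread between WT mice was not measured. The alternatives were DESeq2 1.42.0, upper-quartile normalization, other filters, a threshold of 0.01, no Rn45s, sex as a term, 8 group means, a replicate block and leaving out each library. The test of the 13-week HD difference between regions was added after the data were seen. Scripts were tested on simulated data. Genes were located in GENCODE M21 (GRCm38, the mm10 assembly).

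Members and lists were chosen with earlier results of these data known. Named were Casp9, members past the threshold, the most abundant member of each of 10 role classes, and members without counts. Other members and pathway genes given with values were chosen after their values were seen. Some members are not reported here, though counts over members include them.

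Replicate numbers were not used as pairs outside the replicate block alternative, since no label says that a number marks 1 mouse. No replicates held the same counts, with a chi-square divided by its degrees of freedom of 6.98 to 73.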

Additional observations from a re-analysis of the deposited data

How the results depend on the processing

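The count of members past the threshold in post-symptomatic HD against WT, 2, became 1 with no filter, 1 without Rn45s, 1 with sex as a term, 1 with a mean for each of 8 groups, 0 at an adjusted p under 0.01 and 4 with DESeq2 (Birc6, Bcl2l11, Casp8ap2 and Xiap), and lay between 0 and 4 when 1 library was left out. The 0 came without either 13-week WT library and the 4 without replicate 2 of pre-symptomatic HD striatum. Xiap kept its direction in all 20 alternatives (0.66 to 0.75) and its side of the threshold in 17, and Birc6 its direction in 20 (0.46 to 0.59) and its side in 7. Casp9 reversed in this comparison in 3, at -0.21, -0.20 and -0.07, and ranged from -0.21 to 0.26 with 1 library left out. The cause was not tested. In pre-symptomatic HD against WT, the contrast that chose the group, the 3, a description, became 0 with no filter, 1 without Rn45s, 0 at an adjusted p under 0.01 and 6 with DESeq2, and lay between 0 and 3 with 1 library left out. Between striatum and cortex, the 2 became 1 with upper-quartile normalization, no filter, at least 1 CPM in every library, no Rn45s, an adjusted p under 0.01 or 8 means, 3 with DESeq2, and 1 to 5 with 1 library left out, the 5 without replicate 1 of post-symptomatic HD cortex. Within HD striatum, the 0 became 1 (Bbc3) when replicate 2 of the pre-symptomatic group was left out, the range being 0 to 1. For the stage in all HD libraries, in cortex and between regions, for WT age and for the change in HD minus that in WT, the count was 0 under every alternative run. Deviations of HD libraries of the same number correlated over genes at 0.166 between the regions of post-symptomatic HD and at 0.0995 between those of pre-symptomatic HD. Pairs across ages, which cannot be 1 mouse, had 0.00237 to 0.185. Sex was the same within a number, and whether numbers pair the samples was not settled. With the replicate number as a block, which coincides with sex within HD, 0 members passed in each HD stage comparison. Between striatum and cortex this alternative had a term for each replicate number within genotype and age, as if a number marked 1 mouse. There 2 members passed, Bcl2 and Bid. Depth limits what can be seen in the 13 tested members under 5 CPM.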
